A study of Homo sapiens with 27 samples.

Results

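The response of melanoma cells to the mTOR inhibitor Torin was described in DKO cells, in which both TFE3 and TFEB were knocked out. The members are the 3 libraries labelled as DKO Torin and the 3 labelled as DKO control, 6 of the 27 columns of the table, chosen by genotype and treatment alone. All lines derive from 501mel, a human melanoma cell line, and were grown in serum-containing medium. DKO cells were kept for 12 h without drug or for 12 h with 250 nM Torin. The same pair of conditions was run in TFE3 KO cells and in TFEB KO cells, each labelled with 3 libraries a group. Unedited (WT) cells were likewise labelled as control and Torin with 3 libraries a group, but no time is given for the WT controls. WT cells were also kept in HBSS, a saline without amino acids. Per the study's methods the knockouts were made with Cas9 and isolated as single clones, so the 6 libraries are cultures of 1 clone. Genotype and clone cannot be told apart, and p-values measure the spread between replicate libraries, which the labels do not tie to separate experiments.

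mTOR complex 1 is a kinase on the lysosome that is active when amino acids and growth factors are plentiful. It promotes ribosome production, translation and lipid and nucleotide synthesis and holds autophagy back. TFEB and TFE3, relatives of the melanocyte factor MITF, are phosphorylated by it and kept in the cytoplasm. When mTOR is inhibited they enter the nucleus and bind E-box sequences at genes for lysosomal enzymes, the proton pump and autophagy. Torin blocks the kinase site of mTOR in both of its complexes, so that signalling through AKT to the FOXO factors changes as well. The DKO libraries show which transcripts changed with Torin in a clone edited in both genes.

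The guide sites were located in hg38 and are shown because they define the clone. Both lie in coding sequence on reference exons, TFEB at chr6:41690831-41690850 on the - strand, in exon 3, and TFE3 at chrX:49038370-49038389 on the + strand, opposite to the gene, in exon 4. The 3 bases of the PAM are in capitals.
TFEB site: agtacctgtccgagacctatGGG
TFE3 site: ggtactgtttcacctgctgcCGG
A cut in coding sequence need not remove the transcript, and these 3′ end libraries do not read across the sites. TFE3 read 6.86, 5.93 and 6.26 in the DKO control libraries and 6.15, 6.26 and 8.46 with Torin, on the deposited scale of normalised read counts. The groups overlapped (log2 fold change 0.10 ± 0.17 SE, limma adjusted p = 0.64), and all 6 values lay below the WT control mean of 24.0 ± 0.285 (SD, n = 3). TFEB read 0.156, 1.05 and 0.783 in controls and 0.769, 0.190 and 0.984 with Torin, which is 12 and 11 reads in all and too few for a direction. WT controls read 3.25 ± 0.827 for TFEB (SD, n = 3). MITF, the third member of the family and not edited, read 596, 538 and 532 without and 589, 601 and 551 with Torin. The MITF groups overlapped as well (0.06 ± 0.06 SE, adjusted p = 0.40).

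The 6 DKO libraries held 4641311 to 6190194 reads in 13459 genes, within the 3963182 to 6312317 of all columns, and 3 reads corresponded to a value of 0.461 to 0.590, which covers counting error only. The column labelled WT Torin replicate 1 was identical to that labelled WT HBSS replicate 3 and was left out, so WT Torin has n = 2. All 8 melanoma and melanocyte markers checked were present in every DKO library, with a summed value of 5193 to 5653 in controls and 7128 to 7280 with Torin. Of markers of other cell types, 3 of 6 for fibroblasts (summed value 5.01 to 6.97 in controls, 4.92 to 7.38 with Torin), 1 of 5 for keratinocytes (KRT10, 77.9 to 110.7 and 49.8 to 64.5) and 1 of 6 for leukocytes (CD68, 44.7 to 50.4 and 66.6 to 74.2) were in the table. The remaining markers, among them COL1A2, KRT5, KRT14 and PTPRC, were not analysed here.

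The table also held 64 rows of ERCC spike-ins, synthetic RNAs added in known proportions that come as a set of 2 mixtures. For 8 controls that the mixtures hold at unequal concentration, the summed value was 2.76 to 2.84 times that of 8 controls held at equal concentration in the DKO control libraries. With Torin this ratio was 0.837 to 0.892, and the same split separated all 11 Torin libraries from the 14 without Torin. Mixture and Torin therefore cannot be told apart, and the spike-in rows were left out of every test. The 8 equal controls summed to 5451, 5404 and 4769 without and 6698, 6412 and 8669 with Torin, with no overlap and the highest value in Torin replicate 3. How much was added to each library is not given in the sources used here. As deposited, the median log2 fold change of all genes tested was 0.02, and after scaling each library to the equal controls it was -0.38. All fold changes below are relative to the deposited scale, on which small rises turn negative after this scaling. List medians and values of named genes that turn are given with both values.
The column shared by WT HBSS and WT Torin had a ratio of 2.97, on the side of the libraries without Torin.

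**Figure D1:**
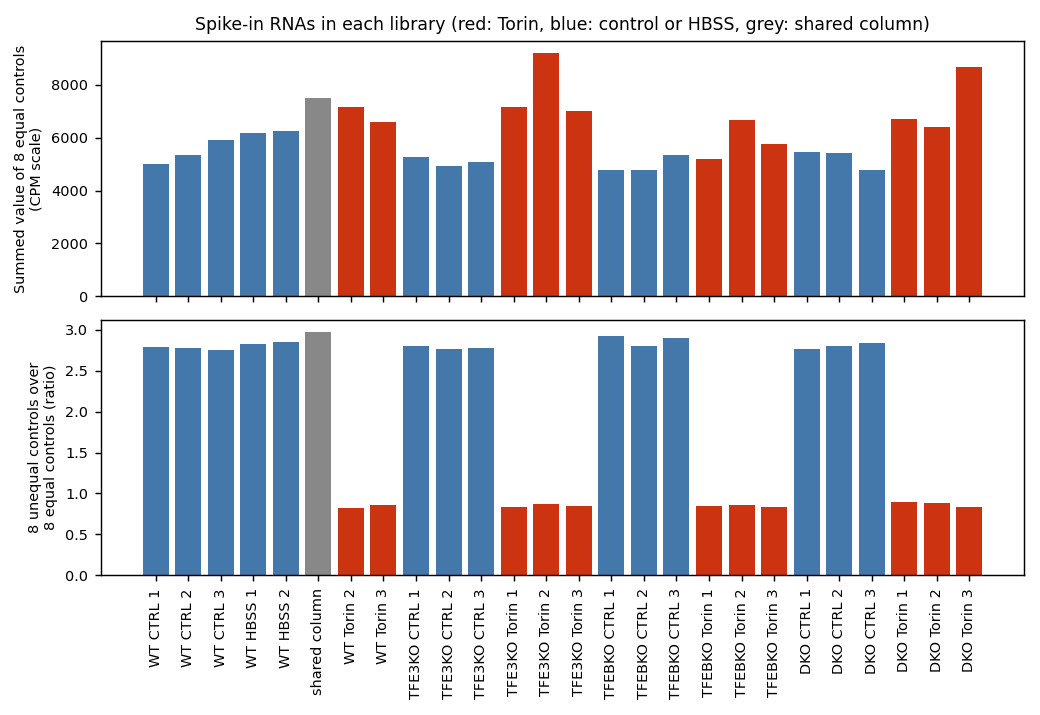
Spike-in controls, 1 bar a library, with the summed value of the 8 equal controls above and the ratio of unequal to equal controls below (red Torin, blue control or HBSS, grey the shared column). DKO control libraries have ratios of 2.76 to 2.84 and DKO Torin libraries of 0.837 to 0.892, and their equal controls average 5208 and 7259.

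Torin changed many transcripts in DKO cells. Of 12991 genes tested, 1416 (10.9%) were called, where a call needs both an adjusted p under 0.05 with limma and a log2 fold change of 1 or more in size. Of these, 868 (6.68%) rose and 548 (4.22%) fell. At the same adjusted p and any fold, 3280 genes (25.2%) were higher and 3410 (26.2%) lower. The Torin and control libraries did not overlap in 7401 genes (57%), among them 1409 of the 1416 called. Replicates correlated at 0.987 to 0.991 within a group and libraries of different groups at 0.950 to 0.959. On the spike-in scale 2324 genes were called, 353 higher and 1971 lower, so that 15.2% of calls were higher, against 61.3% as deposited.

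The 12 genes drawn at each end were chosen among called genes whose groups did not overlap, so their separation is a condition of the choice and no result. The genes that rose most held a small nucleolar RNA, cytoskeletal and matrix genes, pro-death BCL2 members and an mTOR inhibitor. SNORD13, a small RNA of ribosomal RNA processing, read 2.34, 3.31 and 3.13 without and 47.2, 39.8 and 40.7 with Torin (log2 fold change 3.48 ± 0.18 SE, adjusted p = 8.3e-22). The libraries read 3′ ends of polyadenylated RNA, so the values do not tell which form of SNORD13 was counted. FAXDC2, a member of the fatty acid hydroxylase family, went from 0.935, 0.872 and 0.783 to 16.2, 19.0 and 14.6 (3.23 ± 0.25 SE, adjusted p = 3.1e-15). Both genes were low in the controls. AHNAK, a very large scaffold protein under the plasma membrane, read 7.01, 8.02 and 5.63 and then 48.0, 66.2 and 48.4 (2.80 ± 0.17 SE, adjusted p = 5.3e-19). P2RX7, an ATP-gated ion channel, read 25.6, 23.9 and 16.9 and then 166, 149 and 147 (2.77 ± 0.12 SE, adjusted p = 6.4e-25). AHNAK was highest in Torin replicate 2 and P2RX7 lowest in control replicate 3. ADCK3, needed for coenzyme Q synthesis, rose by 2.71, ANKRD20A5P, a pseudogene transcript, by 2.70, and LOC100131564 by 3.15 on the log2 scale. ANKRD20A5P belongs to a family of near-identical copies, so its reads may be split between them. DEPTOR, a protein that binds and inhibits mTOR, stood at 1.40, 0.697 and 0.939 in controls and at 11.4, 11.6 and 9.05 with Torin (2.54 ± 0.31 SE, adjusted p = 1.8e-09).

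The genes that fell most were led by genes of S phase. E2F2, an activator of the E2F family, read 43.0, 47.6 and 41.3 in controls and 5.54, 3.41 and 3.15 with Torin (log2 fold change -3.19 ± 0.17 SE, adjusted p = 1.0e-20). FAM111B, a protease of the replication machinery, read 45.5, 40.8 and 41.0 and then 4.77, 3.98 and 3.94 (-3.06 ± 0.22 SE, adjusted p = 1.2e-14). In both genes Torin replicate 1 was the highest of the Torin libraries. PHLDA2, a pleckstrin homology protein known from imprinting, went from 160.3, 169.6 and 161 to 18.8, 25.2 and 20.3 (-2.89 ± 0.13 SE, adjusted p = 8.2e-24). CHST6, a sulfotransferase of keratan sulfate, read 13.1, 17.3 and 12.1 and then 0.923, 1.14 and 1.97 (-2.70 ± 0.23 SE, adjusted p = 5.3e-14), which is 22 reads in the 3 Torin libraries. CTPS1, which makes CTP, read 82.1, 85.9 and 88.1 without and 17.1, 16.1 and 13.0 with Torin (-2.41 ± 0.12 SE, adjusted p = 1.3e-22).

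**Figure D2:**
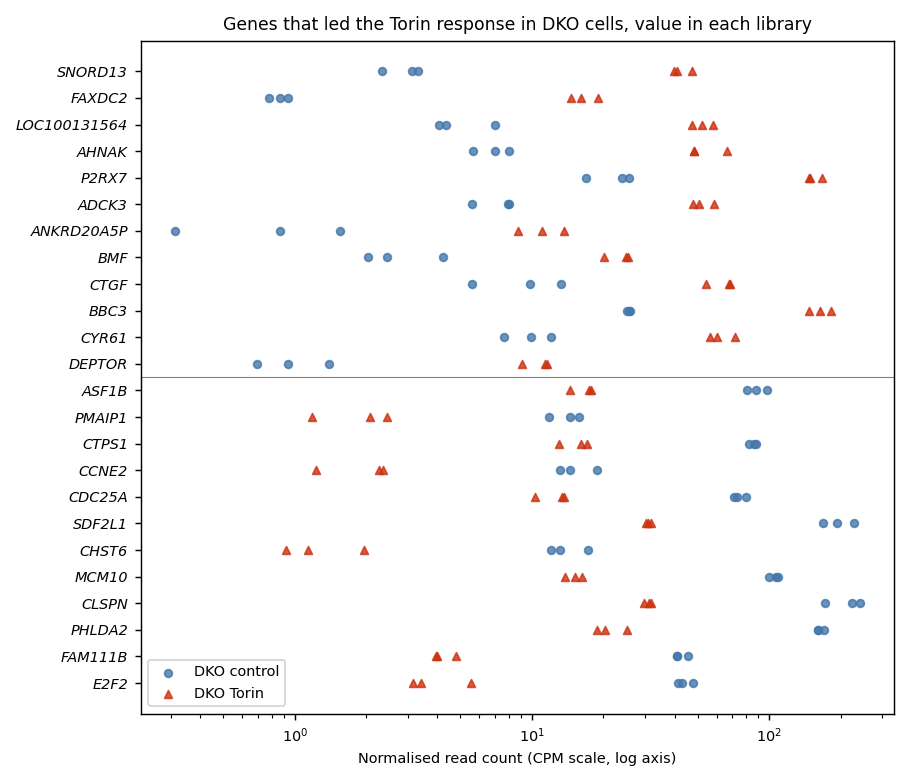
Values of the 12 genes that rose most and the 12 that fell most in DKO cells, on a log axis of normalised read counts, 1 point a library. Genes are ordered by fold change, with SNORD13 at the upper and E2F2 at the lower end, and were chosen among called genes with no overlap of control and Torin points.

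Of the 33 gene lists examined, the E2F and DNA replication genes had the lowest median. All 62 members of the list were in the table and tested, 41 fell by the call, none rose, and the median log2 fold change was -1.38 against 0.02 over all genes. At the adjusted p alone 60 were lower. The exceptions were RBL2, a pocket protein that holds E2F genes back, which was higher by 0.77 (adjusted p = 4.2e-06), and POLD1, a replicative polymerase (-0.40, adjusted p = 0.064), both named after their values were seen. On the spike-in scale the list median was -1.82. Transcript totals of a culture do not separate fewer cells in S phase from less RNA per cell.

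Members of every role in replication fell. Of 17 genes for origin licensing and the helicase, 14 fell (median -1.53), among them MCM10, which read 107, 109 and 99.9 in controls and 16.3, 15.2 and 13.8 with Torin (-2.73 ± 0.13 SE, adjusted p = 3.3e-23). CDC6, which loads the helicase, read 113, 101 and 95.2 and then 19.2, 22.4 and 22.6 (-2.22). MCM2, a helicase subunit, was lower by less (98.9, 98.1 and 89.2 against 49.1, 55.9 and 59.4, -0.79, adjusted p = 1.5e-08) and did not reach the call. CLSPN, an adaptor of the replication checkpoint, read 242, 224 and 173 without and 31.1, 31.9 and 29.7 with Torin (-2.73 ± 0.10 SE, adjusted p = 9.7e-27). Deoxynucleotide supply fell in 6 of 7 members, led by RRM2, a ribonucleotide reductase subunit (250.4, 229 and 247 against 52.9, 48.4 and 49.8, -2.24), and including TYMS (-1.58), which makes dTMP. Polymerases and clamp proteins fell in 9 of 20 members, with PCNA, the sliding clamp, at 136, 132 and 177 without and 28.6, 26.0 and 33.5 with Torin (-2.29 ± 0.12 SE, adjusted p = 3.7e-20). Of 10 genes grouped as replication-coupled chromatin and response, 7 fell, and ASF1B, a histone chaperone outside these lists, fell by 2.36. Of the 8 E2F factors and pocket proteins 5 fell, E2F1 from 23.4, 31.6 and 25.0 to 6.61, 5.50 and 3.74 (-2.15 ± 0.18 SE, adjusted p = 5.3e-14).

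Promoters of these genes hold known E2F words, and a few are shown because the list fell together. The words TTTCCCGC, TTTCGCGC, TTTGCCGC and TTTGGCGC were searched on both strands of the RefSeq promoter windows of GRCh38.p14, 250 bases before to 50 after the gene start. They occurred in 3.33% of all 27305 promoters, in 5.53% of those of the 10226 genes tested that had one, and in 25 of 52 (48.1%) of the replication list. Below, each promoter stretch is written on the strand of the gene with the matched word in capitals, in the reverse complement where the word lies on the other strand.
E2F2, chr1:23531253-23531290: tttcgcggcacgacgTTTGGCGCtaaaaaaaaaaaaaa
E2F1, chr20:33686383-33686433: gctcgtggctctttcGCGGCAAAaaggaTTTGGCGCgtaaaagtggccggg
PCNA, chr20:5126659-5126696: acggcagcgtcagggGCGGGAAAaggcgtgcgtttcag
CLSPN, chr1:35769961-35769998: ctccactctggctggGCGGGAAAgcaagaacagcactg
Of the 25 list members with a word 18 fell, with a median of -1.49, and of the 27 without one 15 fell, with a median of -1.13. MCM10, among the lowest of the list, had no word in its window, which says only that these letters are not there.

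Some genes of mitosis and of G1 fell. In the mitosis and G2/M list 13 of 49 fell and 0 rose, with a median of -0.68, and 37 were lower at the adjusted p alone. ZWINT, a kinetochore protein, read 108, 117 and 109 in controls and 31.4, 23.7 and 25.6 with Torin (log2 fold change -2.02 ± 0.11 SE, adjusted p = 1.3e-20). MYBL2, a transcription factor of the late cell cycle, fell by 1.64, SPC25, also of the kinetochore, by 1.58, and PKMYT1, an inhibitory kinase of CDK1, by 1.56. CCNB1, the mitotic cyclin, was lower by less than the call (122, 128 and 148 against 92.1, 76.8 and 80.7, -0.67, adjusted p = 2.3e-08). Of 15 G1 genes 4 fell, CDC25A, a phosphatase that activates CDK2, by 2.50, CCNE2 by 2.49, CCND3 by 2.07 and CCNE1 by 1.46. CCNG2, a cyclin of growth arrest, rose by 1.04. CCND1, a D cyclin, differed by less (360.2, 380.0 and 344 against 302, 318 and 303, -0.23, adjusted p = 0.014), and CDKN1B, a CDK inhibitor and FOXO target, was higher by 0.61 (adjusted p = 1.2e-06). CDKN1A was not analysed here. Of 11 histone genes 3 fell, HIST1H4C by 1.61, H2AFX by 1.54 and H2AFZ by 1.31. The first of these belongs to a replication-dependent family whose copies can share reads.

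Protein folding genes fell in both the ER and the cytosol. In the ER folding and unfolded protein response list 9 of 34 fell and 0 rose (median -0.59), all 9 of them chaperones or folding enzymes rather than sensors. SDF2L1, an ER chaperone cofactor, read 169, 193 and 227 without and 30.3, 30.7 and 31.7 with Torin (log2 fold change -2.62 ± 0.09 SE, adjusted p = 9.8e-28). CRELD2, a disulfide isomerase, read 102, 95.5 and 96.7 and then 23.8, 23.7 and 25.4 (-1.97 ± 0.10 SE, adjusted p = 4.6e-21). In both the Torin libraries were close to each other. MANF, a secreted folding factor, fell by 1.62, DNAJB11 by 1.58, HYOU1 by 1.48, CALR by 1.39, PDIA4 by 1.16 and PDIA6 by 1.04. HSPA5, the main ER chaperone BiP, read 787, 778 and 675 in controls and 374, 365 and 327 with Torin (-1.07 ± 0.08 SE, adjusted p = 5.1e-16). XBP1, a transcription factor of the response, was lower by 0.94 and just short of the call (107, 112 and 116 against 58.8, 57.1 and 56.9). Of the 13 sensors and degradation factors 0 were called.

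The ER stress response element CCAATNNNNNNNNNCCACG, searched on both strands, lay in 0.0806% of all promoter windows and in 7 of 30 (23.3%) of this list, CRELD2, HSPA5, XBP1, HSP90B1, CALR, CANX and ERO1B. CRELD2, HSPA5 and CALR fell. XBP1, HSP90B1 (-0.47) and CANX (-0.25) were lower without reaching the call, and ERO1B (0.13, adjusted p = 0.67, and -0.26 on the spike-in scale) did not pass the test. The elements of the 3 called genes are shown on the strand of the gene, with the fixed letters in capitals.
HSPA5, chr9:125241376-125241424: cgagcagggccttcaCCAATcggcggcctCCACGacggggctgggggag
CRELD2, chr22:49918539-49918587: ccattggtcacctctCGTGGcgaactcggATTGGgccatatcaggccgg
CALR, chr19:12938369-12938417: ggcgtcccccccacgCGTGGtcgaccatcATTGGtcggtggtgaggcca
SDF2L1, MANF, DNAJB11, HYOU1, PDIA4 and PDIA6 fell with no such match in the window.

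In the cytosolic heat shock list 10 of 19 fell and 1 rose, with a median of -1.05. HSP90AA1, the inducible HSP90, read 8342, 8091 and 7621 in controls and 3449, 3310.4 and 3184 with Torin (log2 fold change -1.27 ± 0.05 SE, adjusted p = 1.2e-25). DNAJA1, a co-chaperone of HSP70, went from 197, 207 and 201 to 64.5, 56.3 and 61.6 (-1.72 ± 0.09 SE, adjusted p = 7.0e-22). Each Torin library was below each control in both genes. HSPA1B, an inducible HSP70, fell by 1.86, DNAJB1 by 1.43 and STIP1, which links HSP70 to HSP90, by 1.39. HSPA1A, a near-identical copy of HSPA1B, had 4 reads in the controls and 0 with Torin, so reads of the pair cannot be assigned with certainty. The exception was CRYAB, a small heat shock protein, which rose from 0.467, 2.09 and 1.72 to 8.15, 6.45 and 5.12 (1.69 ± 0.17 SE, adjusted p = 9.7e-12). Of 33 proteasome genes 4 fell and 0 rose (12.1% called, against 10.9% of all genes), but 27 were lower at the adjusted p alone and the median was -0.56. PSMD11, a lid subunit, fell by 1.28, PSMD1 by 1.21, PSMD14, the lid's deubiquitinase, by 1.13 and PSMB3, a core subunit, by 1.04. Without DKO control replicate 3 or without Torin replicate 2, PSMB3 was no longer called.

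Lysosomal genes are the best known targets of TFEB and TFE3. All 56 members were tested in DKO cells, 2 rose and 2 fell (7.14% called, against 10.9% of all genes), and the median was -0.08 against 0.02 over all genes. GAA, which breaks down glycogen in the lysosome, read 3.89, 2.96 and 5.17 in controls and 12.8, 12.5 and 12.4 with Torin (log2 fold change 1.46 ± 0.22 SE, adjusted p = 2.8e-07). MANBA, a beta-mannosidase, read 7.48, 5.75 and 6.10 and then 12.3, 15.6 and 16.3 (1.08 ± 0.26 SE, adjusted p = 0.00060). Both Torin groups lay above their controls, but MANBA was not called on the spike-in scale. The genes that fell were subunits of the proton pump, ATP6V0B from 241, 274 and 279.5 to 82.6, 99.4 and 107 (-1.45 ± 0.09 SE, adjusted p = 2.3e-19) and ATP6V0D1 from 77.1, 84.2 and 87.8 to 37.1, 43.1 and 41.5 (-1.02 ± 0.11 SE, adjusted p = 3.5e-11). ATP6V0D1 sat close to the limit and was not called after median-of-ratios rescaling, without control replicate 3 or without Torin replicate 1. Another pump subunit, ATP6V1A, read 126, 134 and 119 without and 126, 124 and 131 with Torin (0.01 ± 0.08 SE, adjusted p = 0.94, and -0.46 on the spike-in scale), an overlap.

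By role, 9 of 27 hydrolases and cofactors were higher and 6 lower at the adjusted p alone (median 0.05, and -0.35 on the spike-in scale). Over all genes 25.2% were higher and 26.2% lower by that measure. Of 14 membrane proteins 1 was higher and 5 lower (median -0.20), and of 15 proton pump subunits 0 were higher and 8 lower (median -0.31). CTSD, a cathepsin, was higher by 0.53 (77.6, 90.3 and 96.9 against 138, 115 and 132, adjusted p = 0.00011). LAMP1, the main membrane protein of the lysosome, was lower by 0.63 (362, 437 and 431 against 255, 281 and 258, adjusted p = 1.5e-09). Neither reached the call, and in both the groups did not overlap.

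The 8-base E-box TCACGTGA, which TFEB and TFE3 are known to bind, was found in 1.04% of all promoter windows and in 7 of 36 (19.4%) of the lysosome list. Those of 4 members are shown because these genes went different ways, with the word, which reads the same on both strands, in capitals.
GAA, chr17:80101489-80101571: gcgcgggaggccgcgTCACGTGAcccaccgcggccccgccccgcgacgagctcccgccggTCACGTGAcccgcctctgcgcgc
LAMP1, chr13:113297195-113297259: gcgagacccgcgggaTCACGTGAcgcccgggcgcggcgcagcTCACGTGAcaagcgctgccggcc
MCOLN1, chr19:7522567-7522631: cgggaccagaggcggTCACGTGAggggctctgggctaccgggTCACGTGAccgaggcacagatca
ATP6V0D1, chr16:67481195-67481232: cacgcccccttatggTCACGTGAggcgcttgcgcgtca
GAA, LAMP1 and MCOLN1 hold 2 copies each and ATP6V0D1 1. GAA rose and ATP6V0D1 fell. MCOLN1, a calcium channel of the lysosome named after its values were seen, read 1.87, 4.88 and 3.91 without and 1.08, 3.03 and 3.15 with Torin (-0.42, adjusted p = 0.19), an overlap. The 7 members with the word had a median of -0.31 and the 29 without it one of -0.12.

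Among autophagy genes 2 of 35 rose and 0 fell (5.71% called, against 10.9% of all genes), with a median of 0.15 that became -0.31 on the spike-in scale. Both are cargo receptors. OPTN, which brings ubiquitinated cargo to the autophagosome, read 14.5, 13.6 and 18.8 in controls and 60.8, 66.8 and 58.8 with Torin (log2 fold change 1.94 ± 0.12 SE, adjusted p = 1.2e-18). NBR1 read 60.6, 49.5 and 53.5 and then 143, 117 and 129 (1.24 ± 0.09 SE, adjusted p = 1.8e-15), but was not called on the spike-in scale. SQSTM1, the receptor p62 and a known TFEB target, went the other way without reaching the call, at 349, 351 and 351 against 226, 227 and 207 (-0.67 ± 0.07 SE, adjusted p = 1.4e-11). MAP1LC3B, the LC3 protein of the autophagosome membrane, overlapped between the groups (49.9, 56.5 and 68.1 against 58.3, 56.5 and 53.5, -0.04, adjusted p = 0.80). Of 15 initiation and nucleation genes 7 were higher and 2 lower at the adjusted p alone, and of 13 conjugation genes 1 was higher and 5 lower.

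The FLCN, FNIP and Rag genes, through which the TFE factors are known to feed back on mTOR complex 1, gave 0 calls of 12 (median -0.22). At the adjusted p alone 1 was higher and 6 lower. FLCN itself read 30.1, 35.0 and 21.3 in controls and 20.5, 27.9 and 27.4 with Torin (log2 fold change -0.17, adjusted p = 0.40). RRAGD, a Rag GTPase and textbook TFE target, read 101, 105 and 105 and then 101, 97.1 and 102 (-0.05, adjusted p = 0.60). FNIP2, the partner of FLCN, read 75.1, 68.0 and 77.0 and then 79.2, 79.3 and 86.4 (0.15, adjusted p = 0.19, and -0.31 on the spike-in scale). FLCN and RRAGD overlapped between the groups, while FNIP2 lay narrowly above its controls.

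**Figure D3:**
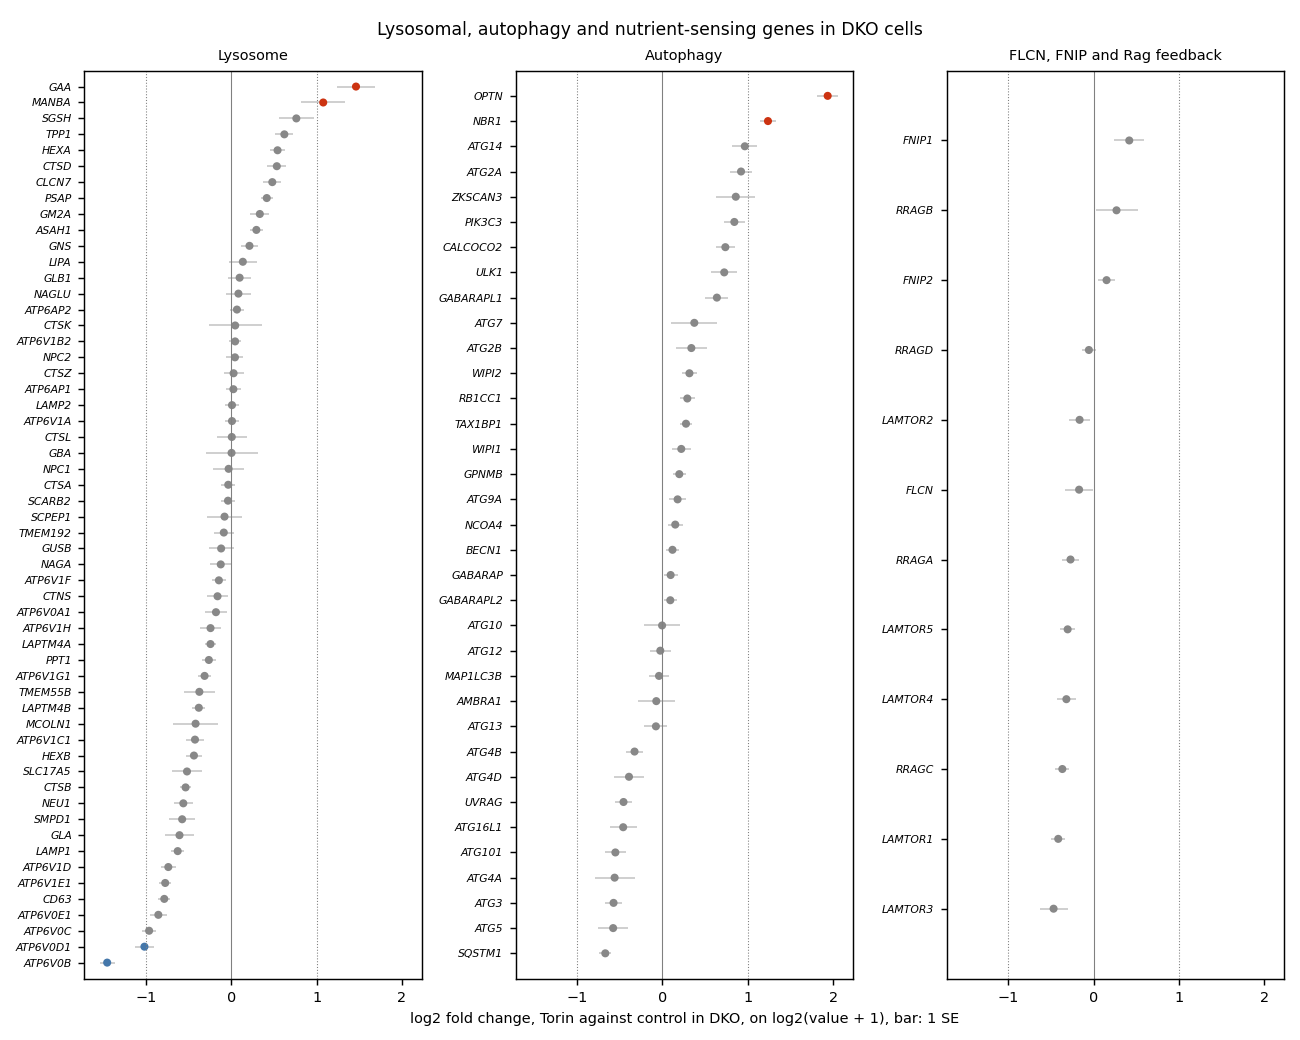
Log2 fold change of Torin against control in DKO cells for each gene of the lysosome, autophagy and FLCN, FNIP and Rag lists, with a bar of 1 SE and dotted lines at -1 and 1. Called genes are red (higher) or blue (lower), with GAA, MANBA, OPTN and NBR1 above 1 and ATP6V0B and ATP6V0D1 below -1.

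In the insulin receptor, PI3K and FOXO list 10 of 43 genes rose, 0 fell and 33 were not called, with a median of 0.26 (-0.20 on the spike-in scale). At the adjusted p alone 21 were higher and 9 lower. Of 22 kinases and brakes between PI3K and mTOR 2 rose (9.09% called, against 10.9% of all genes). Among these 22, 5 were higher and 6 lower at the adjusted p alone (median -0.11), against 25.2% and 26.2% of all genes. FOXO factors and their known targets held 6 of the calls in 14 members (median 0.77, and 0.35 on the spike-in scale). KLHL24, a ubiquitin ligase adaptor, read 17.4, 11.7 and 10.8 in controls and 64.8, 62.2 and 68.5 with Torin (log2 fold change 2.24 ± 0.12 SE, adjusted p = 1.0e-20). TXNIP, a brake on glucose uptake, read 61.1, 59.3 and 54.9 and then 232, 200.1 and 206 (1.85 ± 0.08 SE, adjusted p = 7.9e-24). FBXO32, the ligase atrogin-1, rose by 1.63, BCL6 by 1.45 and CITED2 by 1.41. IRS2, the adaptor that carries the insulin signal to PI3K, read 239.8, 295 and 257 without and 759, 749.9 and 781 with Torin (1.53 ± 0.07 SE, adjusted p = 4.5e-24). IGF1R, a receptor of the same pathway, rose by 1.02, but not on the spike-in scale, without control replicate 3 or without Torin replicate 2. ERBB3, a receptor partner known to rise when PI3K is blocked, was higher by 0.61 (adjusted p = 7.3e-07), below the call. PIK3IP1, an inhibitor of PI3K named after its value was seen, rose from 0.623, 0.872 and 0.626 to 8.15, 8.34 and 9.25 (2.49, adjusted p = 1.2e-10). MTOR overlapped between the groups (54.8, 56.7 and 36.9 against 45.2, 42.1 and 47.6, -0.11, adjusted p = 0.48).

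Of 76 cytosolic ribosomal protein genes 0 were called, but 53 were higher and 1 lower at the adjusted p alone, with a median of 0.25 that became -0.22 on the spike-in scale. RPL3 read 753, 714 and 721 in controls and 1122, 1146 and 1175 with Torin (log2 fold change 0.65, adjusted p = 2.5e-12). RPS6, the ribosomal substrate of the mTOR pathway, read 2597, 2492 and 2698 and then 3096, 3009.8 and 2966 (0.22, adjusted p = 0.0016, and -0.25 on the spike-in scale). RPS26, named after its value was seen, was the member that was lower, at 352, 318 and 375 against 209.7, 192 and 193 (-0.81, adjusted p = 7.0e-12). The 21 translation factors whose mRNAs start with a terminal oligopyrimidine tract gave 0 calls and 13 higher at the adjusted p alone, with a median of 0.19 (-0.28 on the spike-in scale), and EEF2 was higher by 0.58. In ribosome biogenesis 2 of 39 fell (5.13% called, against 10.9% of all genes), LYAR by 1.21 and PNO1 by 1.11. At the adjusted p alone 24 were lower (median -0.33). POLR1B, a subunit of RNA polymerase I, overlapped (66.7, 59.6 and 63.2 against 62.6, 55.0 and 62.6). Host genes of small nucleolar RNAs, also transcripts with an oligopyrimidine start in many cases, rose in 4 of 17 with SNORD13 counted (median 0.54). EPB41L4A-AS1 read 31.8, 30.2 and 32.2 without and 143, 129 and 123 with Torin (2.03 ± 0.09 SE, adjusted p = 2.0e-23). SNHG7 rose by 1.38 and GAS5 by 1.19, neither called on the spike-in scale.

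**Figure D4:**
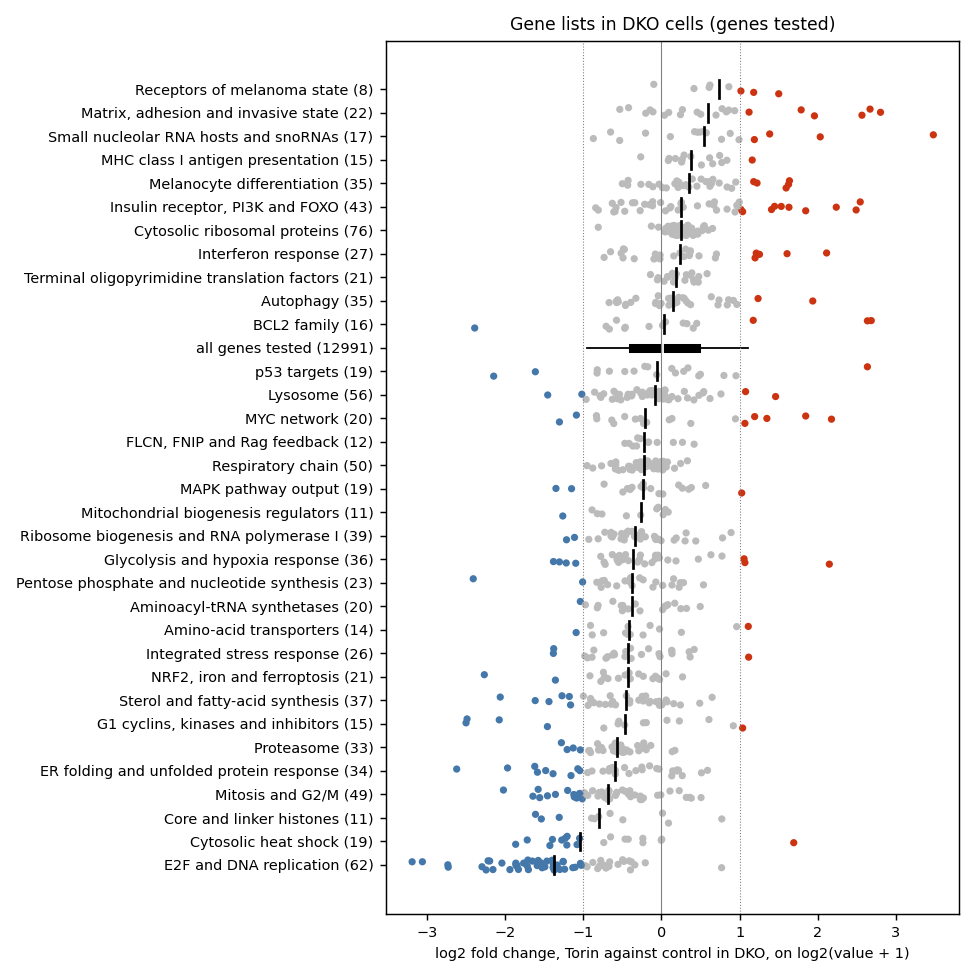
Log2 fold change of Torin against control in DKO cells for the tested members of each gene list, 1 point a gene, red where called higher and blue where called lower, with a black tick at each median. The row of all genes tested shows percentiles 25 to 75 as a thick bar and 5 to 95 as a thin line around the median of 0.02. The E2F and DNA replication list has the lowest median, -1.38, and the receptors of melanoma state the highest, 0.74.

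Biosynthetic genes fell in part. In the sterol and fatty-acid list 6 of 37 fell and 0 rose (16.2% called, against 10.9% of all genes, median -0.45). DHCR7, a reductase late in cholesterol synthesis, read 36.1, 37.3 and 42.7 in controls and 10.9, 14.4 and 10.8 with Torin (log2 fold change -1.61 ± 0.14 SE, adjusted p = 9.7e-14). ACAT2 fell by 1.44 and ELOVL6, a fatty acid elongase, by 1.27. SREBF1, the factor that drives lipid synthesis, was lower by 0.88 (15.9, 15.9 and 14.7 against 9.54, 5.88 and 8.86, adjusted p = 7.7e-05) and not called. In glycolysis and the hypoxia response 4 of 36 fell and 3 rose (median -0.36). ENO2 fell by 1.38, LDHA, which makes lactate, by 1.30 (506, 481 and 501 against 206, 202 and 193) and HK2, a hexokinase, by 1.22. NDRG1, a stress-responsive gene, went from 5.45, 5.93 and 5.32 to 26.5, 32.4 and 25.8 (2.15 ± 0.17 SE, adjusted p = 9.6e-15). SLC2A1, the glucose transporter GLUT1, was lower by 0.78, below the call. Of 23 genes for the pentose phosphate path and nucleotides, CTPS1 and PRPS1 (-1.01) fell (8.70% called, against 10.9% of all genes). PRPS1 lost its call in 5 of 17 other settings.

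Genes of the integrated stress response were called in a share near that of all genes, 11.5% against 10.9%. Of 26 members 2 fell, CEBPG by 1.38 and MTHFD2, a mitochondrial folate enzyme, by 1.38, and 1 rose, PPP1R15A (1.12, not called on the spike-in scale), with a median of -0.43. ATF4, the central factor, read 449, 430.4 and 413 without and 497, 455 and 466 with Torin (log2 fold change 0.13, adjusted p = 0.077), and DDIT3 overlapped (0.14, adjusted p = 0.32). On the spike-in scale they were at -0.33 and -0.32. Of 14 amino acid transporters 1 fell and 1 rose (14.3% called). The glutamine transporter SLC1A5 went from 478, 458 and 435 to 215, 218 and 209 (-1.09 ± 0.07 SE, adjusted p = 4.4e-17). Its relative SLC1A4, which carries alanine, serine and cysteine, went from 367, 364 and 328 to 787, 764 and 738 (1.11 ± 0.07 SE, adjusted p = 1.6e-17), so the pair moved in opposite directions. On the spike-in scale SLC1A4 was not called. SLC7A5, the leucine transporter, overlapped (179.6, 211 and 217 against 165, 191 and 160.4). YARS fell by 1.04 as the lone call among 20 aminoacyl-tRNA synthetases (5% called, against 10.9% of all genes). Of 21 genes for the NRF2 response, iron and ferroptosis 2 fell (9.52% called, against 10.9% of all genes). TFRC, the transferrin receptor, read 377, 402 and 361 in controls and 79.5, 82.9 and 72.6 with Torin (-2.26 ± 0.08 SE, adjusted p = 9.8e-28). GCLM, for glutathione synthesis, fell by 1.36, and NQO1, another NRF2 target, overlapped (-0.11, adjusted p = 0.24). PPARGC1B, a coactivator of mitochondrial genes, fell by 1.26 as the call among 11 such regulators (9.09% called, against 10.9% of all genes). PPARGC1A overlapped (24.6, 25.8 and 19.3 against 21.2, 23.3 and 26.0, 0.02, adjusted p = 0.91, and -0.43 on the spike-in scale). TFAM, which maintains mitochondrial DNA, was lower by 0.89. Of 50 respiratory chain genes 0 were called and 26 were lower at the adjusted p alone (median -0.22).

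Pro-death BCL2 genes rose and fell. BBC3, the BH3 protein PUMA, read 25.7, 25.8 and 25.2 in controls and 182, 164 and 148 with Torin (log2 fold change 2.63 ± 0.10 SE, adjusted p = 1.9e-27). BMF, another BH3 protein, read 4.21, 2.44 and 2.03 and then 20.2, 24.8 and 25.4 (2.68 ± 0.20 SE, adjusted p = 1.5e-15). PMAIP1, the BH3 protein NOXA, went the opposite way, from 11.8, 15.9 and 14.4 to 2.46, 2.09 and 1.18 (-2.39 ± 0.23 SE, adjusted p = 3.7e-12). Of 16 family members 3 rose and 1 fell (median 0.03, and -0.29 on the spike-in scale). BCL2 rose by 1.17, though not on the spike-in scale, and MCL1 was lower by 0.47, below the call. Of 19 genes in a list of p53 targets, which holds BBC3 but not PMAIP1, 1 rose and 2 fell (15.8% called, against 10.9% of all genes). Those that fell were the nuclease AEN, by 2.14, and TIGAR, by 1.61. MDM2 was lower by 0.82 (75.7, 63.3 and 67.6 against 39.4, 42.5 and 34.0, adjusted p = 5.4e-08).

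MYC network members were called in both directions, 5 of 20 higher and 2 lower. The higher ones include TXNIP, which is also counted in the insulin receptor, PI3K and FOXO list. MXD4, an antagonist of MYC, read 15.0, 15.5 and 13.8 without and 72.9, 65.6 and 71.8 with Torin (log2 fold change 2.18 ± 0.13 SE, adjusted p = 1.1e-19). MYC itself read 8.26, 15.3 and 13.0 and then 31.5, 27.3 and 37.0 (1.35 ± 0.23 SE, adjusted p = 1.5e-05), and was not called on the spike-in scale. MYC-driven metabolic and nucleolar genes gave 0 higher and 7 of 8 lower at the adjusted p alone (median -0.72), with LDHA and ODC1 called. In the MAPK output list DUSP5, an ERK phosphatase, fell by 1.35 and EGR1 by 1.15, and JUN rose by 1.03. The other 16 of 19 members were not called (15.8% called, against 10.9% of all genes). Without Torin replicate 3 EGR1 was not called, and JUN was not called on the spike-in scale, without control replicate 1 or without Torin replicate 1. DUSP6, a direct readout of ERK signalling, was higher by 0.27 (238, 229 and 227 against 294, 272 and 272, adjusted p = 0.0011, and -0.20 on the spike-in scale).

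Of 35 melanocyte differentiation genes 5 rose, 0 fell and 30 were not called (14.3% called, against 10.9% of all genes). Their median was 0.35 (-0.12 on the spike-in scale). TFAP2A, a factor of the neural crest and melanocyte, read 147, 178 and 191 in controls and 469.8, 513 and 579 with Torin (log2 fold change 1.59 ± 0.11 SE, adjusted p = 6.4e-12). OCA2, a melanosome channel, read 14.6, 16.6 and 13.6 and then 42.3, 48.0 and 54.7 (1.63 ± 0.12 SE, adjusted p = 4.7e-16). CAPG, an actin capping protein, rose by 1.64. EDNRB, the endothelin receptor of melanocytes, rose by 1.22 and KIT, the receptor of stem cell factor, by 1.18, neither called on the spike-in scale. PMEL, the melanosome fibril protein, was higher by 0.62 (2148, 2039.8 and 1938 against 3058, 3206 and 3151, adjusted p = 6.1e-14), while TYR, the first enzyme of melanin synthesis, was lower by 0.43 (225, 227 and 219.9 against 159.8, 173 and 165, adjusted p = 1.6e-05). The pigment genes thus did not move as 1 block.

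In the matrix, adhesion and invasive state list 6 of 22 rose and 0 fell (median 0.60). CTGF and CYR61, secreted matrix proteins and known targets of the YAP and TEAD factors, read 5.61, 13.2 and 9.86 and 7.63, 9.94 and 12.1 in the controls. With Torin CTGF read 67.8, 54.2 and 68.1 (log2 fold change 2.67 ± 0.17 SE, adjusted p = 5.5e-15) and CYR61 72.0, 56.1 and 60.2 (2.56 ± 0.14 SE, adjusted p = 1.3e-17). Both are among the 12 genes that rose most. FN1, fibronectin, read 46.4, 42.4 and 27.5 and then 130.4, 137 and 133 (1.79), and AHNAK2, a relative of AHNAK, rose by 1.96. VIM, the mesenchymal filament protein, was higher by 0.46 (adjusted p = 0.00028, and -0.01 on the spike-in scale), below the call. In the list of receptors of melanoma state 3 of 8 rose and 0 fell (37.5% called, against 10.9% of all genes). Of the receptors that mark other melanoma states, AXL was higher by 0.86 (3.89, 2.09 and 2.82 against 5.69, 7.78 and 4.92, adjusted p = 0.012), below the call, and NGFR had 7 and 15 reads in all. PDGFRA, also 1 of the fibroblast markers, had 2 reads in the controls and 39 with Torin. The summed fibroblast markers overlapped between the groups, although 1 of the 3 tested was called. Their part in the matrix genes was not tested.

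Interferon genes rose in 5 of 27 members and fell in 0 (median 0.24, and -0.20 on the spike-in scale). STAT2, a factor of the type I interferon response, read 37.1, 29.5 and 26.1 in controls and 101, 94.1 and 90.9 with Torin (log2 fold change 1.61 ± 0.11 SE, adjusted p = 1.4e-17). PARP14 rose by 1.21 and DDX60 by 1.20, neither called on the spike-in scale. ISG15, a standard readout of the response, missed the test (-0.49, adjusted p = 0.080). Of 15 genes for MHC class I presentation 1 was called (6.67%, against 10.9% of all genes), PSMB9, an immunoproteasome subunit (1.16, not on the spike-in scale). At the adjusted p alone 7 were higher (median 0.38, and -0.02 on the spike-in scale). B2M, the light chain of class I molecules, overlapped between the groups (0.18, adjusted p = 0.11, and -0.29 on the spike-in scale).

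The Torin response of DKO cells was then set beside that of the other genotypes, each against its own controls. In WT 1233 genes (9.49%) were called, in TFE3 KO 1488 (11.5%) and in TFEB KO 629 (4.84%). Of the 1416 DKO calls, 779 were also called in WT in the same direction, which is 55.0% of the DKO and 63.2% of the WT calls. TFE3 KO shared 981 (69.3% of the DKO and 65.9% of its own calls) and TFEB KO 443 (31.3% and 70.4%). In none of the 3 genotypes was a DKO call made in the opposite direction (0 genes). Over the DKO calls the median absolute log2 fold change was 1.25 in DKO, 1.05 in WT, 1.20 in TFE3 KO and 0.80 in TFEB KO, and since these genes were picked in DKO the first value is drawn upwards. Across all 12991 genes the log2 fold changes of DKO correlated with those of WT at r = 0.845, of TFE3 KO at 0.897 and of TFEB KO at 0.799, a description over genes, which are not independent replicates.

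Differences between the responses were tested as interactions. Against WT 21 genes (0.162%) were called, 16 with a more positive response in DKO and 5 with a more negative one. Against TFE3 KO there were 2 (0.0154%) with limma, and on recovered reads 1 with edgeR and 3 with DESeq2. An unadjusted limma p under 0.05 was reached by 735 of 12991 genes, and a share of 0.05 would reach it without any difference. TFEB itself averaged 0.681 in TFE3 KO controls and 0.661 in DKO controls, against 1.11 in TFEB KO and 3.25 in WT. With Torin it averaged 1.84 in TFE3 KO and 0.648 in DKO, all values of few reads. For protein, by western blot, the paper reports TFEB moderately lowered in its TFE3 KO cells, most in a clone other than the one sequenced. Against TFEB KO there were 116 (0.893%), 56 more positive and 60 more negative. This count was 30 with the shared column kept and 175 on the spike-in scale, 14 more positive and 161 more negative. The shared column is in none of the DKO or TFEB KO groups. Keeping it left these fold changes as they were and altered only the spread, which is estimated over all groups. Against WT, a fit of the compared groups alone gave 9 calls and the spike-in scale 7.

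HSPA5 fell in every genotype, but from different starting levels. Its controls averaged 747 ± 62.2 in DKO and 687 ± 28.8 in TFE3 KO (SD, n = 3 each), against 1741 ± 33.8 in WT and 2101 ± 268 in TFEB KO. With Torin the means were 355, 306, 368 and 436 in the same order, with n = 2 for WT. The fall in DKO was smaller by 1.17 ± 0.12 SE on the log2 scale than in WT (adjusted p = 4.6e-09) and by 1.20 ± 0.11 SE than in TFEB KO (adjusted p = 3.1e-10). The control means thus lay further apart between genotypes than the Torin means. With the shared column kept, the difference from WT was 0.97, and on the spike-in scale that from TFEB KO was 0.96, each just under the limit of 1. CTGF and CYR61 also started low in DKO, at 9.57 and 9.87 against 42.6 and 59.3 in WT, and with Torin reached 63.4 and 62.8 against 113 and 121. The rise was larger in DKO than in WT by 1.55 ± 0.22 SE for CYR61 (adjusted p = 4.5e-05) and by 1.28 ± 0.25 SE for CTGF (adjusted p = 0.0097). CTGF lost the call in 3 of 11 fits without a library, with the shared column kept (adjusted p = 0.072) and with only the groups compared (adjusted p = 0.16). Against TFE3 KO neither gene was called, and against TFEB KO CTGF differed by 0.89 (adjusted p = 0.019), below the call. AHNAK with Torin read 54.2 in DKO, 42.9 in TFE3 KO, 43.0 in TFEB KO and 49.4 in WT, and its controls ran from 3.71 in TFE3 KO to 22.2 in TFEB KO. Its rise was larger in DKO than in TFEB KO by 1.88 ± 0.24 SE (adjusted p = 5.1e-07). With the shared column kept, which is in none of these groups, the estimate was the same but not called (adjusted p = 0.051).

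Replication genes fell further in DKO than in TFEB KO in 10 of 62 members and than in WT in 1, E2F2, with 0 of 62 called against TFE3 KO. The difference of E2F2 from WT was not called on the spike-in scale (adjusted p = 0.058), with only the groups compared (adjusted p = 0.057) or in 6 of 11 fits without a library. The list medians were -1.38 in DKO, -1.30 in TFE3 KO, -1.09 in WT and -0.75 in TFEB KO. CLSPN read 213 without and 30.9 with Torin in DKO and 167 and 66.7 in TFEB KO, a fall larger in DKO by 1.42 ± 0.15 SE (adjusted p = 3.3e-09). TFRC with Torin read 78.3 in DKO and 87.9 in TFE3 KO against 172 in WT and 174 in TFEB KO, from controls of 351 to 407. Its fall in DKO exceeded that in WT by 1.02 ± 0.12 SE (adjusted p = 2.1e-07), close to the limit of 1, and 5 of 11 fits without a library did not call it. DHRS2, a short-chain reductase, rose in DKO from 7.79, 11.7 and 14.1 to 37.5, 37.4 and 39.4, but read 4.98 and 3.82 on average in TFE3 KO. The difference was 2.09 ± 0.27 SE (adjusted p = 1.2e-05) and held in all 12 fits without a library. For the lysosome, autophagy and FLCN lists, 0 members were called as interactions in any of the 3 comparisons, and the lysosome medians were -0.08 in DKO, -0.05 in WT, -0.08 in TFE3 KO and -0.06 in TFEB KO. A missing call does not show that the responses were alike. All 3 comparisons use the same DKO libraries and differ by clone as well as genotype.

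**Figure D5:**
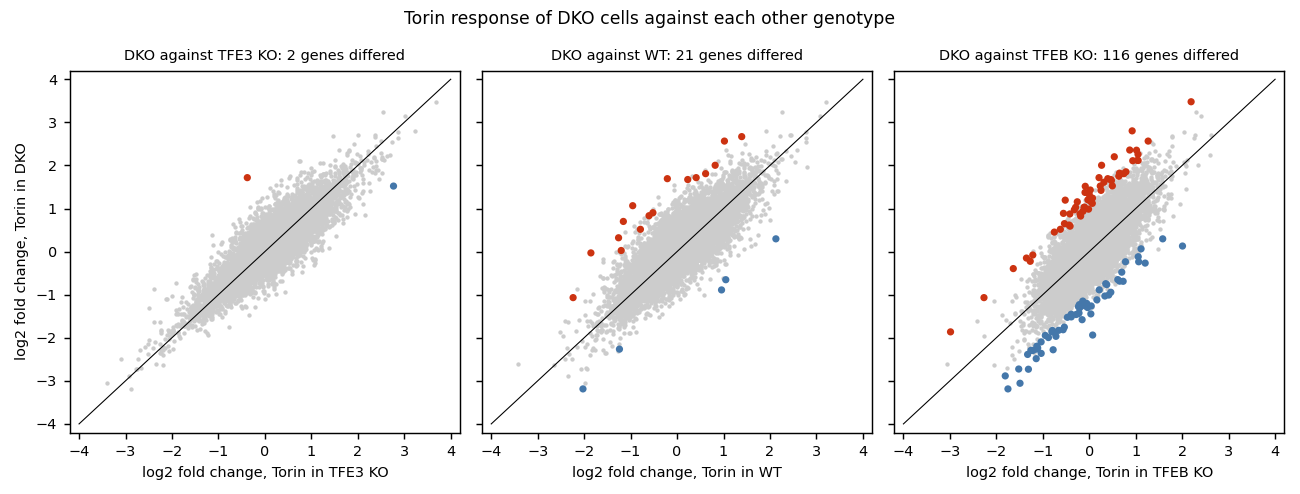
Log2 fold change of Torin against control in DKO (vertical) and in TFE3 KO, WT or TFEB KO (horizontal), 1 point a gene, with the line of equal response. Genes whose response differed by the call are red (more positive in DKO) or blue (more negative), 2, 21 and 116 genes in the 3 panels, and all others are grey. Over all genes r was 0.897, 0.845 and 0.799 in the same order.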

How the data were processed

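Polyadenylated RNA was profiled with QuantSeq Forward, which reads the 3′ ends of transcripts. Per the submitters' processing notes, reads were checked with FastQC 0.11.9, trimmed with cutadapt 2.10 and mapped to hg38 with STAR 2.7.8a, and the study's methods name edgeR for normalisation. How reads were counted, how libraries were scaled and how genes were filtered is not given in the sources used here. The authors deposited a signal per gene symbol, on the CPM scale after scaling of each library. In each of the 27 columns 100% of these values were whole multiples of the value of 1 read (tolerance 0.1 read), so whole read counts were recovered from the deposited signal. Depth is given as the total of these reads, and floors cover counting error only.

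The 64 spike-in rows were removed, and the column that 2 WT labels share was left out. Genes that reached a value of 1 in 3 or more libraries entered the tests (12991, with 468 left out). log2(value + 1) of 25 libraries was fitted with limma 3.58.1 in R 4.3.3 (a mean per group, trend and robust variance), with 2-sided p-values adjusted by Benjamini-Hochberg in each comparison. Fold changes understate those of low genes because of the added 1. Of the 13459 symbols 12306 were placed by symbol and 772 by synonym.

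Members and the 33 gene lists (946 of 986 entries in the table) were chosen with earlier results of these data known. The genes named are TFE3, TFEB, MITF, the 12 called genes at each end with a mean of at least 5 and no overlap, up to 4 called members and the fixed anchors of each list, and up to 4 called genes at each end of an interaction. Further list members, such as PCNA, CDC6 and CALR, were named after their values were seen, and some members that the rule names are not reported here.

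As alternatives, the pseudocount was set to 0.1, the filter was dropped or raised to a value of 5, libraries were rescaled by median of ratios, and the fit was replaced by edgeR 4.0.16 or DESeq2 1.42.0 on recovered reads. Further fits had a replicate block, held only the groups compared, kept the shared column as WT Torin replicate 1 or left out each library in turn. Keeping the spike-in rows and scaling to the equal controls were added after seeing the data. Same-numbered DKO libraries deviated together (r = 0.149, 0.138 and 0.366 over 6449 genes), a pairing that comes from the data and not from the labels, although Torin replicate 2 correlated best with control replicate 1 (0.216). Scripts were tested on simulated data.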

Additional observations from a re-analysis of the deposited data

Results flagged for a closer look

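Responses of DKO cells to Torin that differed by test from those of another genotype are listed here as differences of log2 fold changes, DKO minus the other genotype, with limma and Benjamini-Hochberg adjustment. Against WT, E2F2 was at -1.16 and TFRC at -1.02. E2F2 was not called in 6 of 11 fits without a library. CRYAB differed by 1.90, and its controls read 1.43 in DKO against 72.0 in WT. PSAT1 differed by 1.82, but had 3 reads in the DKO controls and 2 with Torin, so no response could be measured in DKO, and it was not called with edgeR (adjusted p = 0.84). CYR61 was at 1.55, and TRPM4 at 1.44, which 2 of 11 fits without a library called.

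Against TFE3 KO, RORB was at -1.25 (adjusted p = 0.050, called in 2 of 12 fits without a library) and DHRS2 at 2.09. RORB controls read 3.52 in DKO and 1.20 in TFE3 KO, and with Torin 12.0 and 13.7.

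Against TFEB KO, FAM111B was at -1.57, AP1S3 at -1.50, E2F2 at -1.44 and CLSPN at -1.42. At the other end AHNAK was at 1.88, SAMD5 at 1.74, FBXO2 at 1.66 and DHRS2 at 1.51. Each of these 8 was called in all 12 fits without a library, but with the shared column kept AHNAK (adjusted p = 0.051) and FBXO2 (adjusted p = 0.079) were not. That column is in none of the groups compared, and both estimates stayed the same.

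Outside the gene measurements, the 8 equal spike-in controls summed to 7259 ± 1229 (SD, n = 3) in DKO Torin and to 5208 ± 381 in DKO control libraries.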

How the results depend on the processing

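Against 1416 calls, scaling to the equal spike-ins gave 2324 (353 higher, 901 shared with the 1416), and fits without a library gave 1400 to 1532, with 103 to 175 of the 1416 lost and 0 changed in sign. A pseudocount of 0.1 gave 1926, a minimum of 5 1150, edgeR 2028 and DESeq2 1966. Of the 21 calls against WT, 9 were found with only the groups compared and 7 on the spike-in scale, and 9 to 24 without a library, 9 without WT control replicate 3. The fits with 13 or fewer were those without WT control replicate 2 or 3, DKO control replicate 2, DKO Torin replicate 2 or 3, or either WT Torin library. The 2 against TFE3 KO became 1 with no filter, median-of-ratios rescaling, edgeR, only the groups compared, the shared column kept, spike-in rows kept or scaling to spike-ins, and 1 to 5 without a library, with 4 and 5 without DKO control replicate 1 and 3. The 116 against TFEB KO became 30 with the shared column kept, at unchanged fold changes, and 175 (14 more positive) on the spike-in scale. They ran from 91 to 141 without a library. The replicate block gave 1416 calls in DKO, 22 against WT, 2 against TFE3 KO and 122 against TFEB KO. TFE3 turned to -0.30 on the spike-in scale and ran from -0.026 (without DKO Torin replicate 3) to 0.18 (without Torin replicate 1), and MITF to -0.40 on the spike-in scale. TFEB turned to 0.026 with a pseudocount of 0.1, 0.0091 with median-of-ratios, 0.016 with edgeR, 0.029 with DESeq2, and ran from -0.25 to 0.21 without a library (0.17, 0.067 and 0.21 without control replicate 2, control replicate 3 or Torin replicate 2). The cause was not tested. Over the other settings 1352 of 1397 values of named genes stayed the same by the limits set, 39 were weaker and 6 changed sign. Of 363 list counts 335 stayed close to the main count and 28 moved away from it. Depth limits TFEB, NGFR and HSPA1A, and 2 libraries limit WT Torin.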
